A study of Mus musculus with 12 samples.

Results

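The genes examined here were Lpl, the gene of lipoprotein lipase, and 9 further genes that handle fatty acids: Lipg, Angptl4, Cd36, Fabp4, Fabp5, Plin2, Pparg, Scd1 and Cpt1a. They were taken by name, and every probe that carried one of these names was used, which gave 12 probes for the 10 genes out of 55681 probes and 21154 named genes on the array. The set was chosen by the rise of Lpl at both of its probes on the arrays labelled Srf. All values of these genes in the comparison of Srf with EGFP are therefore given as a description, without a test. The comparison of Mkl1 with EGFP used the same EGFP arrays, so Lpl is given without a test there too. The hairpin comparisons used other arrays, but the set was named with earlier results of all arrays known.

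Lipoprotein lipase is secreted and splits the triglycerides of circulating lipoproteins into fatty acids that the surrounding tissue can take up. Its activity is held down by the secreted protein Angptl4, while endothelial lipase, the product of Lipg, is a relative that acts mainly on phospholipids. Fatty acids enter cells with the help of Cd36, are carried in the cytosol by fatty acid binding proteins such as Fabp4 and Fabp5, are stored in lipid droplets coated by Plin2, are desaturated by Scd1 and are passed into mitochondria by Cpt1a. Pparg encodes a nuclear receptor that binds fatty acids and controls many of these genes in adipocytes. Neural progenitors are known to use both fatty acid synthesis and fatty acid oxidation.

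The cells were mouse neural progenitor cells (NPCs) made from embryonic stem cells in culture and kept in medium with EGF and bFGF. The overexpression experiment held cells with a retroviral transgene of EGFP (the control), Mkl1 or Srf. Srf is a transcription factor and Mkl1 is its actin-regulated cofactor. The knockdown experiment held cells with a retroviral short hairpin RNA (shRNA) against EGFP (shEGFP, the control) or with 1 of 2 hairpins against Actb, the β-actin gene (shActb_1 and shActb_2). Each of the 6 groups had 2 one-colour Agilent arrays. The study describes the array duplicates of the Actb knockdown as technical, so its p-values measure array-to-array error rather than the spread between cultures. For the overexpression experiment the kind of duplicate is not given in the sources used here, and the same may hold for the Mkl1 p-values. EGFP, Mkl1 and Srf lay on 1 slide, with EGFP in another row, shEGFP and shActb_1 on a second slide, and shActb_2 alone on the third slide. For shActb_2 the hairpin and the slide cannot be told apart. In the comparisons of Mkl1 and Srf with EGFP, the transgene and the row cannot be told apart. The NPC line is not named in the labels. The study's methods name NSEB5-2C and N31 as the NPCs used, of which N31 carries inducible reprogramming factors and NSEB5-2C does not.

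Levels are log2 signals relative to the 75th percentile of each array, so that 0 marks that percentile. Apart from the summed signals of the marker lists, levels were compared between groups only within a probe. Tests were made with limma over all 12 arrays, and p-values were adjusted over all probes with a usable signal, that is, well above background on both arrays of a compared group. Between 59.3% and 72.5% of probes per array were well above background, and both extremes were shActb_2 arrays (72.5% for replicate 1 and 59.3% for replicate 2). No probe was saturated. Among probes well above background on both arrays of a group, duplicates differed by over 2-fold at 0.499% to 2.74%, most often in EGFP. Of 12 neural progenitor markers, 11 were well above background on both arrays of each group, and the exception was Olig2. Their levels were not even across groups: Nes and Sox9 rose and Slc1a3 fell over 2-fold with Mkl1, Sox2, Fabp7 and Slc1a3 fell over 2-fold with shActb_1, Sox9 rose and Slc1a3 fell over 2-fold with shActb_2, and Sox2 read -1.05 on the arrays labelled Srf relative to EGFP. The summed signal of the 12 markers, in multiples of the 75th percentile, was 281 to 298 for EGFP, 324 to 338 for Mkl1, 260 to 269 for Srf, 254 to 258 for shEGFP, 275 to 278 for shActb_1 and 366 to 368 for shActb_2. Vim, at 7.83 to 8.37 in log2 units over the 12 arrays, carried most of this sum in every group. The Actb probe fell with both hairpins, with log2 changes of -0.53 for shActb_1 and -0.65 for shActb_2 (limma adjusted p = 0.00128 and 0.000197). The probes of Mkl1 (Mrtfa in current names) were 0.17 and 0.20 higher on the Mkl1 arrays and did not pass the test. Both Srf probes went against the label: on the log2 scale they read -1.40 and -2.46 on the arrays labelled Srf relative to EGFP, and 1.18 and 0.71 on the Mkl1 arrays. Whether these probes can detect the introduced reading frames was not tested.

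Of the 12 probes, 11 were measurable in every comparison, and the exception was Cd36. Between the arrays labelled Srf and EGFP, 6 probes of 5 genes were over 2-fold higher (both Lpl probes, Lipg, Angptl4, Fabp4 and Pparg) and 0 were over 2-fold lower, while 8.8% of all 35552 probes with a usable signal were over 2-fold in either direction. Under normexp 4 probes were over 2-fold higher, since Lipg and Fabp4 read 0.48 and 0.92 on the log2 scale. With Mkl1, Lipg and Angptl4 rose and 3 probes fell (Scd1 and both Cpt1a probes) at an adjusted p under 0.05, out of 9 probes besides those of Lpl, where 20.8% of all probes passed. When only the 4 arrays of the Mkl1 comparison were fitted, none of these 9 probes passed in limma (lowest adjusted p = 0.0702, for Lipg). With shActb_1, Lipg and Angptl4 rose and Fabp4 fell, where 9.41% of all probes passed. With shActb_2, 5 probes rose (both Lpl probes, Lipg, Angptl4 and Pparg) and 0 fell, where 40.3% of all probes passed. A probe was called changed when it was also over 2-fold. By this rule 1 of the 11 probes, Lipg, was called in each of the Mkl1, shActb_1 and shActb_2 comparisons, against 2.78%, 1.61% and 6.31% of all probes. Lipg was not well above background on any control array and entered these tests only through the treated arrays, so nothing is read from these counts, and without it 0 probes were called. The Mkl1 count over all 11 probes was 2 without EGFP replicate 2 or without Mkl1 replicate 2. The median change over the 11 probes was 1.04 for Srf, 0.12 for Mkl1, -0.011 for shActb_1 and -0.0039 for shActb_2 on the log2 scale, and the median over all probes tested was -0.036, -0.029, 0.0073 and -0.023. In bulk RNA, fewer cells of a type and less RNA per cell cannot be told apart. Mkl1 and Srf shared their EGFP arrays, and the hairpins shared their shEGFP arrays.

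**Figure D1:**
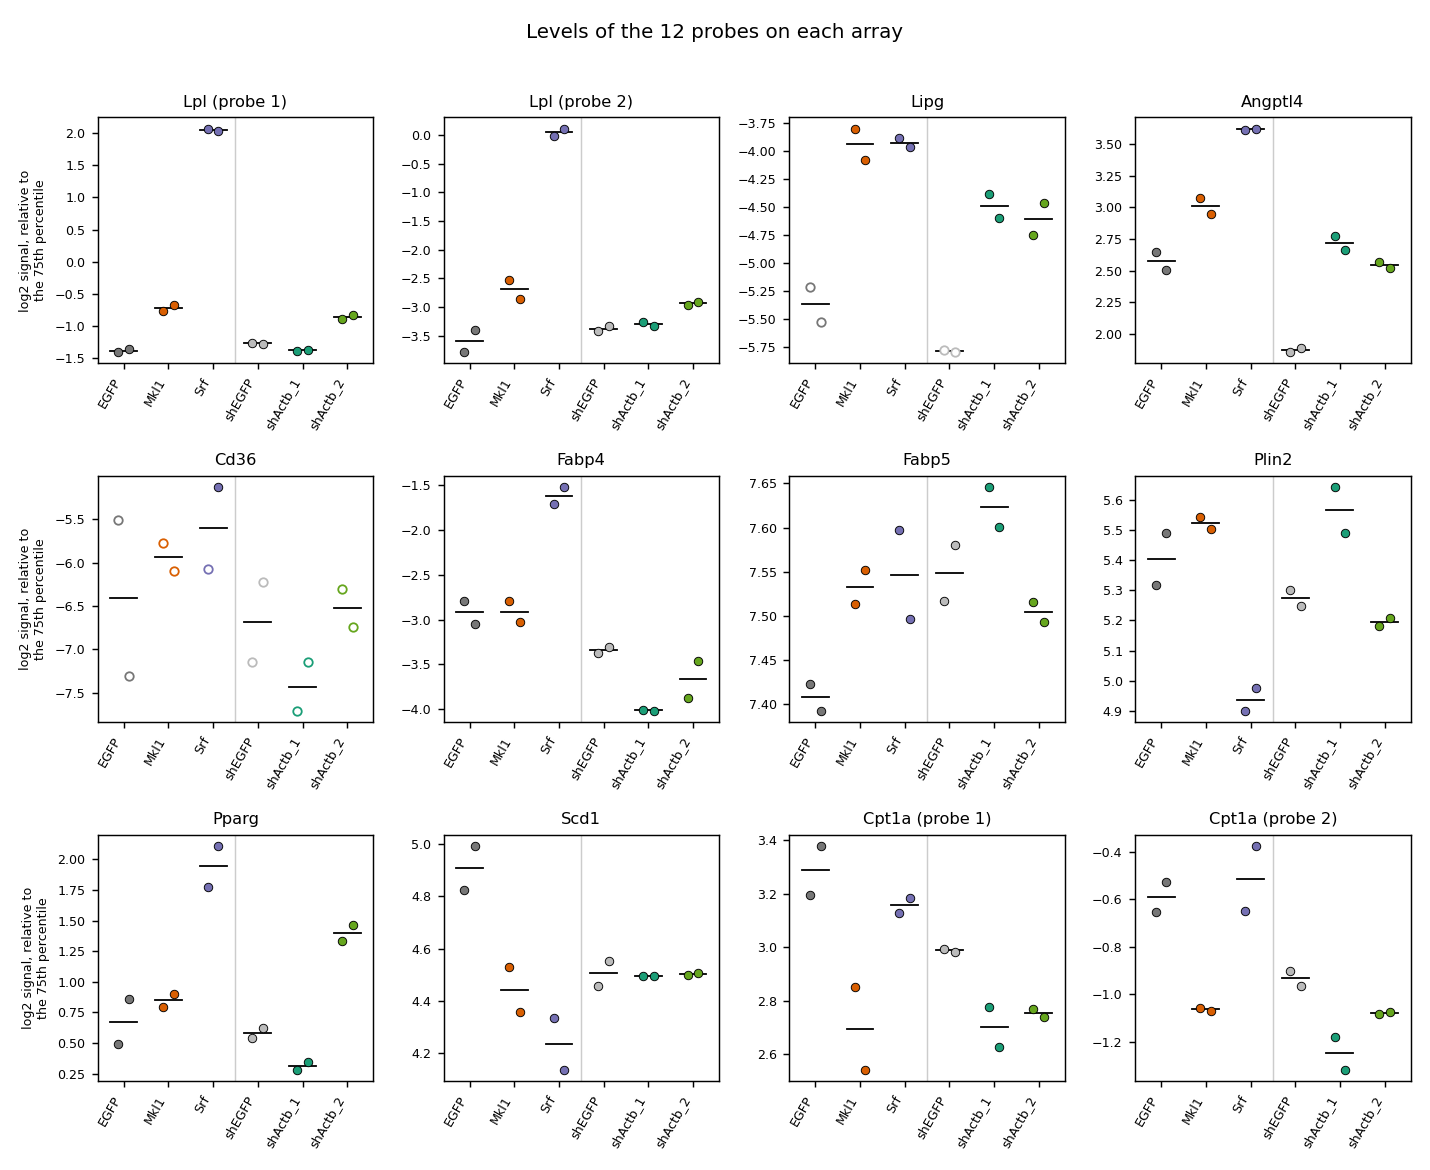
Level of each of the 12 probes on each of the 12 arrays, as log2 signal relative to the array's 75th percentile; filled points are arrays on which the probe was well above background, open points are arrays on which it was not, and lines are means of 2 arrays. The vertical scale differs between panels. Both Lpl probes stand apart on the Srf arrays, Lipg is open only on the EGFP and shEGFP arrays, and Cd36 is filled on 1 array.

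Lpl was higher on the arrays labelled Srf than on those of any other group. At its brighter probe (A_51_P259296, NM_008509) the levels were -1.41 and -1.36 on the EGFP arrays, -0.76 and -0.67 on the Mkl1 arrays, 2.07 and 2.04 on the Srf arrays, -1.27 and -1.28 on the shEGFP arrays, -1.39 and -1.37 on the shActb_1 arrays, and -0.89 and -0.83 on the shActb_2 arrays. At its dimmer probe (A_52_P257812) they were -3.79 and -3.40 for EGFP, -2.52 and -2.86 for Mkl1, -0.02 and 0.11 for Srf, -3.42 and -3.33 for shEGFP, -3.26 and -3.33 for shActb_1, and -2.96 and -2.91 for shActb_2. Srf, Mkl1 and shActb_2 held the 3 highest means at both probes, in this order, and neighbours in that order did not overlap. At the dimmer probe the step in mean level from shActb_2 to Mkl1 (0.242) was close to the SD of the Mkl1 arrays (0.238). Lower in the order, EGFP overlapped shActb_1 at the brighter probe and shEGFP at the dimmer one. The probes followed each other over the 12 arrays (Pearson r = 0.993, a description, since the Srf arrays dominate it).

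Relative to the EGFP arrays, the log2 level of Lpl was 3.44 (SE 0.057) and 3.64 (SE 0.15) higher on the arrays labelled Srf, which is 10.9-fold and 12.5-fold. On the Mkl1 arrays it was 0.67 (SE 0.057) and 0.90 (SE 0.15) higher than on the EGFP arrays, which is 1.59-fold and 1.87-fold, also without a test. With normexp the Srf values were 3.26 and 2.79. With shActb_2 it rose by 0.42 (SE 0.058, limma adjusted p = 0.00153) and 0.44 (SE 0.15, adjusted p = 0.0487). With shActb_1 the differences were -0.11 (95% interval -0.25 to 0.026, limma adjusted p = 0.333) and 0.082 (-0.27 to 0.43, adjusted p = 0.85). The direct difference between the hairpins, shActb_2 minus shActb_1, was 0.53 (SE 0.058, limma adjusted p = 0.000992) at the brighter probe and 0.36 (SE 0.15, adjusted p = 0.104) at the dimmer one. The rise with shActb_2 at the dimmer probe did not pass with any single array left out (adjusted p from 0.11 to 0.195).

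Lipg, the gene of endothelial lipase, was detected in all groups but the controls. Its probe (A_52_P344424, NM_010720) read -5.21 and -5.52 on the EGFP arrays, -3.80 and -4.07 on the Mkl1 arrays, -3.88 and -3.96 on the Srf arrays, -5.77 and -5.79 on the shEGFP arrays, -4.38 and -4.59 on the shActb_1 arrays, and -4.75 and -4.46 on the shActb_2 arrays. It was not well above background on any EGFP or shEGFP array and was well above background on the other 8. Against the lowest signal that counted as well above background on the control arrays, Lipg was at least 2.16-fold higher on the arrays labelled Srf, at least 2.14-fold higher with Mkl1 (limma adjusted p = 0.00111), at least 2.25-fold higher with shActb_1 (adjusted p = 0.00251) and at least 2.07-fold higher with shActb_2 (adjusted p = 0.00104). These bounds, and those given below for other genes, use the dimmest probe that counted as well above background on an array. They are not strict minima, since detection differed between probes. On EGFP replicate 1, a Ppargc1a probe counted at -4.69 and an Acsl6 probe at -4.67 did not. The measured changes of Lipg were 1.44, 1.43, 1.30 and 1.18 on the log2 scale, each with an SE of 0.15. These changes and their p-values rest on control signals not above background, and the probe was tested only because the treated arrays were. The hairpins differed by -0.12 (95% interval -0.47 to 0.23, adjusted p = 0.581), and their arrays overlapped. With another background correction (normexp) the changes were 0.48, 0.49, 0.39 and 0.31 on the log2 scale, and no longer over 2-fold.

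Angptl4, the inhibitor of lipoprotein lipase, rose with Mkl1 and with each hairpin in the fit of all 12 arrays. Its probe (A_51_P338443, NM_020581) read 2.65 and 2.51 on the EGFP arrays, 3.07 and 2.95 on the Mkl1 arrays, 3.61 and 3.62 on the Srf arrays, 1.86 and 1.89 on the shEGFP arrays, 2.77 and 2.66 on the shActb_1 arrays, and 2.57 and 2.52 on the shActb_2 arrays. No treated array overlapped the arrays of its own control, while the shEGFP arrays read lower than the EGFP arrays. In log2 units relative to EGFP, Angptl4 was 1.04 (SE 0.075) higher on the arrays labelled Srf and rose by 0.43 with Mkl1 (SE 0.075, limma adjusted p = 0.00731). Relative to shEGFP it rose by 0.85 with shActb_1 (SE 0.075, limma adjusted p = 0.000848) and by 0.67 with shActb_2 (SE 0.075, adjusted p = 0.000641). With the arrays of the Mkl1 comparison alone, the rise with Mkl1 did not pass (limma adjusted p = 0.142). The difference between the hairpins was -0.17 (95% interval -0.35 to 0.00051, adjusted p = 0.115).

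**Figure D2:**
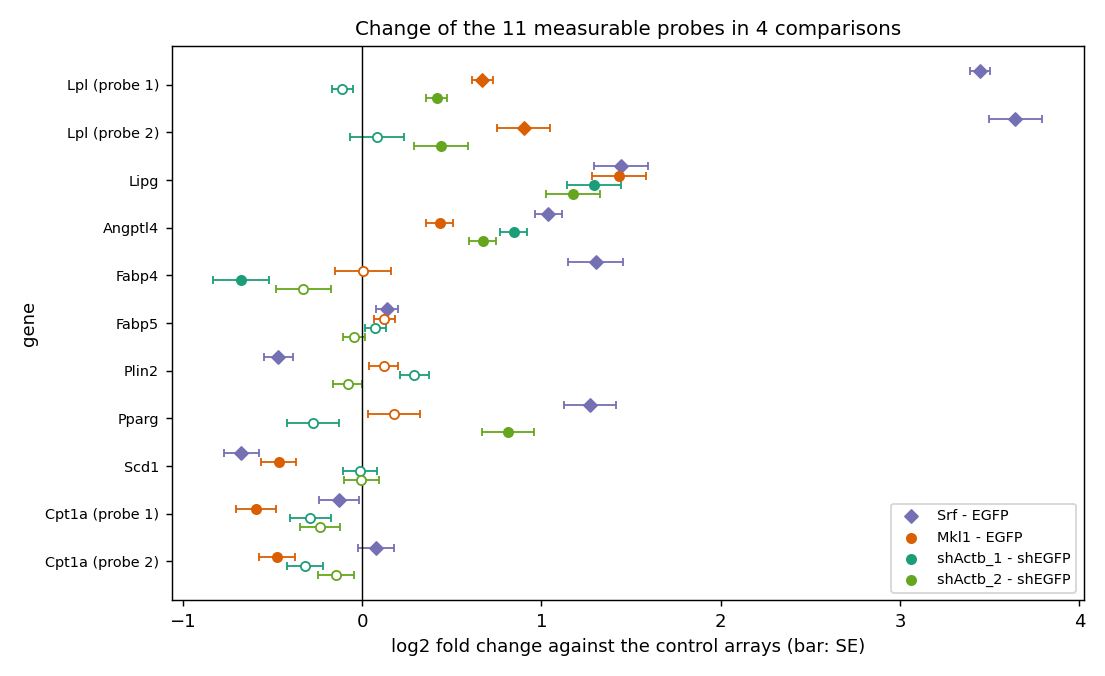
Change of the 11 measurable probes as log2 fold change against the control arrays (EGFP for Srf and Mkl1, shEGFP for the hairpins); bars are SE from limma over 2 arrays per group. Filled circles passed an adjusted p under 0.05 and open circles did not; diamonds mark values given without a test, which are the Srf comparison and Lpl with Mkl1. Lipg and Angptl4 lie to the right of 0 in all 4 comparisons, while Lpl reaches 3.44 and 3.64 on the arrays labelled Srf and stays within 0.90 elsewhere.

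Cd36, which takes long-chain fatty acids into the cell, was well above background on 1 of the 12 arrays, an array labelled Srf, and entered no test. Its levels ranged from -7.71 to -5.13. The cytosolic carrier Fabp4, a marker of adipocytes and macrophages, was dim but well above background on all arrays. Its levels were -2.79 and -3.05 on the EGFP arrays, -2.80 and -3.03 on the Mkl1 arrays, -1.71 and -1.53 on the Srf arrays, -3.37 and -3.31 on the shEGFP arrays, -4.01 and -4.02 on the shActb_1 arrays, and -3.88 and -3.46 on the shActb_2 arrays. EGFP and Mkl1 overlapped, and the Srf arrays were higher than all others.

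The log2 level of Fabp4 was 1.30 (SE 0.16) higher on the arrays labelled Srf and differed by 0.0057 with Mkl1 (95% interval -0.36 to 0.37, limma adjusted p = 0.982). It fell by 0.67 with shActb_1 (SE 0.16, adjusted p = 0.0359), and the value with shActb_2 was -0.33 (95% interval -0.69 to 0.034, adjusted p = 0.131). The fall with shActb_1 did not pass with any single array left out (adjusted p from 0.149 to 0.159), nor in limma under normexp, quantile normalization or no filter on dim probes (adjusted p = 0.0649, 0.114 and 0.084). The other carrier, Fabp5, which is abundant in neural progenitors, had levels between 7.39 and 7.65 on all 12 arrays. Its changes were 0.14 for Srf, 0.12 for Mkl1, 0.075 for shActb_1 and -0.044 for shActb_2, none of the tested ones passed (adjusted p from 0.174 to 0.588), and the 95% intervals stayed within -0.18 and 0.26. With quantile normalization the value for shActb_2 was -0.34 (limma adjusted p = 0.00443).

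Plin2, the lipid droplet coat protein, read between 4.90 and 5.64 over the 12 arrays, with the lowest levels, 4.90 and 4.97, on the arrays labelled Srf. The EGFP arrays read 5.32 and 5.49, so the log2 difference of Srf from EGFP was -0.47 (SE 0.080). The changes were 0.12 with Mkl1 (limma adjusted p = 0.324), 0.29 with shActb_1 (adjusted p = 0.0668) and -0.080 with shActb_2 (adjusted p = 0.459). The direct difference of shActb_2 from shActb_1 was -0.37 in log2 units (SE 0.080, limma adjusted p = 0.0116), with 5.64 and 5.49 on the shActb_1 arrays and 5.18 and 5.21 on the shActb_2 arrays. This difference did not pass without shActb_1 replicate 1, shActb_2 replicate 1 or shActb_2 replicate 2 (adjusted p = 0.0866, 0.0551 and 0.0665). The change with shActb_1 passed in limma with a variance trend and robust estimation (adjusted p = 0.012) and with a filter on all 12 arrays (adjusted p = 0.0435), and quantile normalization gave -0.27 with shActb_2 (adjusted p = 0.0466).

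Pparg, the nuclear receptor, was high on the arrays labelled Srf and on those of the second hairpin. Its probe (A_51_P106799, NM_011146, spotted 10 times per array and averaged) read 0.49 and 0.86 on the EGFP arrays, 0.80 and 0.90 on the Mkl1 arrays, 1.78 and 2.11 on the Srf arrays, 0.54 and 0.63 on the shEGFP arrays, 0.28 and 0.34 on the shActb_1 arrays, and 1.34 and 1.46 on the shActb_2 arrays. Srf and shActb_2 did not overlap any other group, and EGFP overlapped both Mkl1 and shEGFP. The level was 1.27 (SE 0.14) higher in log2 units on the arrays labelled Srf than on the EGFP arrays and rose by 0.81 with shActb_2 (SE 0.14, limma adjusted p = 0.00392). The values for Mkl1 and shActb_1 were 0.18 (95% interval -0.16 to 0.51, limma adjusted p = 0.418) and -0.27 (-0.61 to 0.063, adjusted p = 0.329). Between the hairpins Pparg differed by 1.09 (SE 0.14, limma adjusted p = 0.00188) and was the only probe of the 11 called there, where 32.1% of all probes passed and 5.03% were called.

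Because Pparg was the regulator among these genes that differed between the hairpins, the 250 bases before each of its 3 RefSeq transcription starts are shown (GRCm38.p6, forward strand), as the probe was not assigned to one of them. The window before Cpt1a is shown for the fall of both its probes with Mkl1. Capitals mark AGGTCA on either strand, the half-site bound by Pparg and related receptors.
Pparg start 1, chr6:115360894-115361143: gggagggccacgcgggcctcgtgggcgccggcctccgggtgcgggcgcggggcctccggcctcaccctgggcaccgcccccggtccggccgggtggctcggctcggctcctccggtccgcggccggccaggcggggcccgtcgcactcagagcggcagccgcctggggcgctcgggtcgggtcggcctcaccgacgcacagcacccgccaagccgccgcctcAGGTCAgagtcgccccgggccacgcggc
Pparg start 2, chr6:115362099-115362348: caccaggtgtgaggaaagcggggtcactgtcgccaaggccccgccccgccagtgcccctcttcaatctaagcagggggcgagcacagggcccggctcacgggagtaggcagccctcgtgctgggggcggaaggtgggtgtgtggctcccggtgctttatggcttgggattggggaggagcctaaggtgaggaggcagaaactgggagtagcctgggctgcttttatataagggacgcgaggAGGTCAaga
Pparg start 3, chr6:115421816-115422065: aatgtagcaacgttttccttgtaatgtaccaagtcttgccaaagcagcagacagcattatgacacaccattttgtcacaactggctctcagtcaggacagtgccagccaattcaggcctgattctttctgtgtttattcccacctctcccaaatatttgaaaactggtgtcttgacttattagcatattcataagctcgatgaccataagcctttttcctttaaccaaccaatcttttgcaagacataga
Cpt1a, chr19:3323051-3323300: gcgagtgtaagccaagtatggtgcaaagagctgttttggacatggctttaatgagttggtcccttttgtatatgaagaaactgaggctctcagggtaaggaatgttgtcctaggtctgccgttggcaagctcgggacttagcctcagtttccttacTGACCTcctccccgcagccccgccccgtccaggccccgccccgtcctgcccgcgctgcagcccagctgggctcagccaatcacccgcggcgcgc

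Promoter windows of 300 bases, from 250 before to 50 after a start, were at hand for 4 of the 10 genes (Pparg, Cpt1a, Plin2 and Cd36), with 6 starts. AGGTCA, searched on both strands, was in 5 of these 6 windows and in 16.3% of all 32851 windows. The DR1 element, 2 copies of AGGTCA with 1 base between them, was in 0 of the 6 and in 0.0396% of all windows. The CArG box, the Srf binding motif, was in 0 of the 6 and in 1.63% of all windows. Windows for Lpl, Lipg, Angptl4, Fabp4, Fabp5 and Scd1 were not analysed here.

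Scd1, which makes monounsaturated fatty acids, and Cpt1a, which controls fatty acid entry into mitochondria, were lower with Mkl1 and were not called in any comparison. Scd1 (NM_009127) read 4.83 and 4.99 on the EGFP arrays, 4.53 and 4.36 on the Mkl1 arrays and 4.33 and 4.14 on the Srf arrays, while all arrays of the knockdown experiment lay between 4.46 and 4.55. It fell by 0.47 with Mkl1 (SE 0.096, limma adjusted p = 0.0143), read -0.67 (SE 0.096) relative to EGFP on the arrays labelled Srf, and differed by -0.011 and -0.0039 with the hairpins (adjusted p = 0.975 and 0.978). The Cpt1a probe spotted 10 times per array (A_51_P427674, NM_013495) read 3.20 and 3.38 on the EGFP arrays, 2.85 and 2.54 on the Mkl1 arrays, 3.13 and 3.19 on the Srf arrays, 2.99 and 2.98 on the shEGFP arrays, 2.78 and 2.63 on the shActb_1 arrays, and 2.77 and 2.74 on the shActb_2 arrays. With Mkl1 it fell by 0.59 (SE 0.11, limma adjusted p = 0.0105), and its other probe (A_55_P2057405) fell by 0.47 (SE 0.099, adjusted p = 0.0151). With the hairpins the 2 probes read -0.29 and -0.32 for shActb_1 and -0.23 and -0.15 for shActb_2, below their control each time without passing the test (adjusted p from 0.0986 to 0.275). Under normexp the second probe passed with shActb_1 and shActb_2 (limma adjusted p = 0.0295 and 0.0431), and the first passed with shActb_2 under quantile normalization and with the compared arrays only (adjusted p = 0.0354 and 0.0459). The falls of Scd1 and of both Cpt1a probes with Mkl1 did not pass in limma without Mkl1 replicate 2 (adjusted p = 0.105, 0.0606 and 0.0912), and that of the second Cpt1a probe did not pass without Mkl1 replicate 1 (adjusted p = 0.0639). None of the 3 passed in limma with the arrays of that comparison alone (adjusted p = 0.144, 0.140 and 0.117).

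The wider pathway was followed in 6 lists with 135 further genes, with 1 probe per gene. With Mkl1, 2 of 123 tested genes rose and 3 fell over 2-fold, where 3.84% of all named genes were called. With shActb_1, 1 rose and 4 fell of 126, where 2.39% were called, and with shActb_2, 2 rose and 6 fell of 126, where 5.76% were called. On the arrays labelled Srf, 6 of 125 were over 2-fold higher and 4 over 2-fold lower, without a test, where 9.03% of all named genes were over 2-fold. Between the hairpins, 4 of 123 were higher with shActb_2 and 2 lower, where 4.3% were called. In the tested comparisons the shares of list genes called lay close to those of all named genes or above them, and nothing particular to the lists is read from these counts. The Srf count of 10 was 16 without EGFP replicate 2, the Mkl1 count was 8 without EGFP replicate 2 and 3 without Mkl1 replicate 2, the shActb_1 count was 2 without shActb_1 replicate 1 and 3 without shEGFP replicate 2, the shActb_2 count was 5 without shActb_2 replicate 2, and the count between the hairpins was 2 without shActb_1 replicate 2. When only the 4 arrays of the Mkl1 comparison were fitted, 0 list genes were called.

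**Figure D3:**
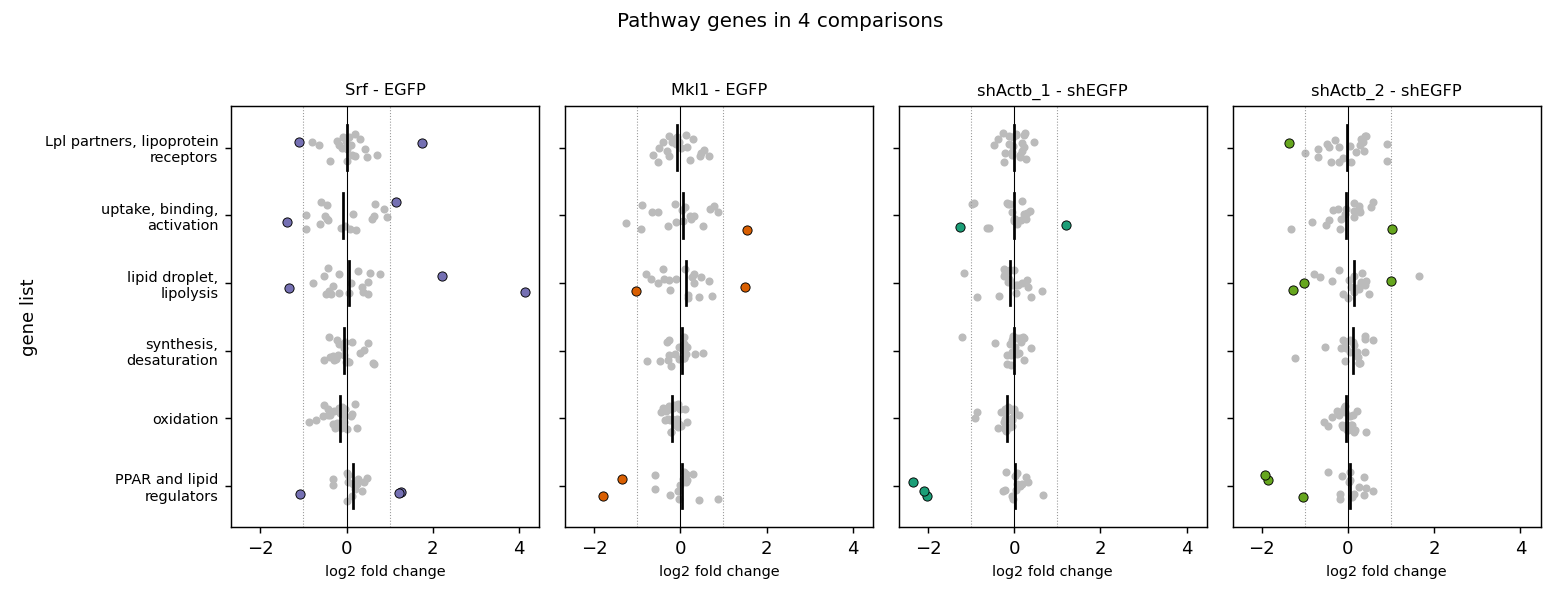
Log2 fold change of each tested gene of the 6 pathway lists in the 4 comparisons with a control, 1 point per gene and 1 row per list; coloured points were called (adjusted p under 0.05 and over 2-fold; for Srf, over 2-fold without a test), grey points were not, thick lines are medians and dotted lines mark 2-fold. The oxidation list has no coloured point in any panel, and the regulator list holds 3 coloured points at or below -1.05 with each hairpin.

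The regulators held the largest decreases among the list genes with Mkl1 and with each hairpin. Ppargc1a, a coactivator of Pparg and of genes for oxidative metabolism, read -1.36 and -1.80 on the EGFP arrays, -3.28 and -3.49 on the Mkl1 arrays, -2.67 and -2.65 on the Srf arrays, -1.45 and -1.62 on the shEGFP arrays, -3.57 and -3.53 on the shActb_1 arrays, and -2.89 and -3.89 on the shActb_2 arrays. No treated array overlapped its control. It fell with Mkl1 (-1.81 in log2 units, SE 0.30, limma adjusted p = 0.0061), with shActb_1 (-2.02, SE 0.30, adjusted p = 0.00648) and with shActb_2 (-1.85, SE 0.30, adjusted p = 0.00253), and read -1.09 (SE 0.30) on the arrays labelled Srf. The fall did not pass with Mkl1 without Mkl1 replicate 2 (limma adjusted p = 0.0524), nor with shActb_1 without shEGFP replicate 1 or shActb_1 replicate 1 (adjusted p = 0.0551 and 0.0503). The other Ppargc1a probe was too dim to test.

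Cebpd, a transcription factor that acts early in adipocyte differentiation, fell with Mkl1 and with both hairpins, and its level on the arrays labelled Srf overlapped that of EGFP. It read 2.81 and 2.70 on the EGFP arrays, 1.42 and 1.37 on the Mkl1 arrays, 2.96 and 2.79 on the Srf arrays, 3.24 and 3.29 on the shEGFP arrays, 0.86 and 0.97 on the shActb_1 arrays, and 2.25 and 2.18 on the shActb_2 arrays. It fell with Mkl1 (-1.35 in log2 units, SE 0.081, limma adjusted p = 0.000133), with shActb_1 (-2.35, SE 0.081, adjusted p = 1.65e-05) and with shActb_2 (-1.05, SE 0.081, adjusted p = 0.00017), while the Srf and EGFP arrays overlapped with a difference of 0.12. The hairpins differed from each other by 1.30 (SE 0.081, limma adjusted p = 0.000165). Klf15, a regulator of lipid and amino acid metabolism, fell with shActb_1 (-2.09 in log2 units, SE 0.34, limma adjusted p = 0.00933) and with shActb_2 (-1.91, SE 0.34, adjusted p = 0.00381). The former did not pass without shEGFP replicate 2 or shActb_1 replicate 1 (limma adjusted p = 0.0635 and 0.062), nor with the compared arrays only (adjusted p = 0.0617). It was not well above background on the EGFP or Mkl1 arrays and at least 1.79-fold higher on the arrays labelled Srf than on the EGFP arrays. Ppargc1b, a relative of Ppargc1a, was 1.26 (SE 0.13) higher on the arrays labelled Srf, and its values of 0.87 with Mkl1, 0.67 with shActb_1 and 0.26 with shActb_2 were under 2-fold.

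**Figure D4:**
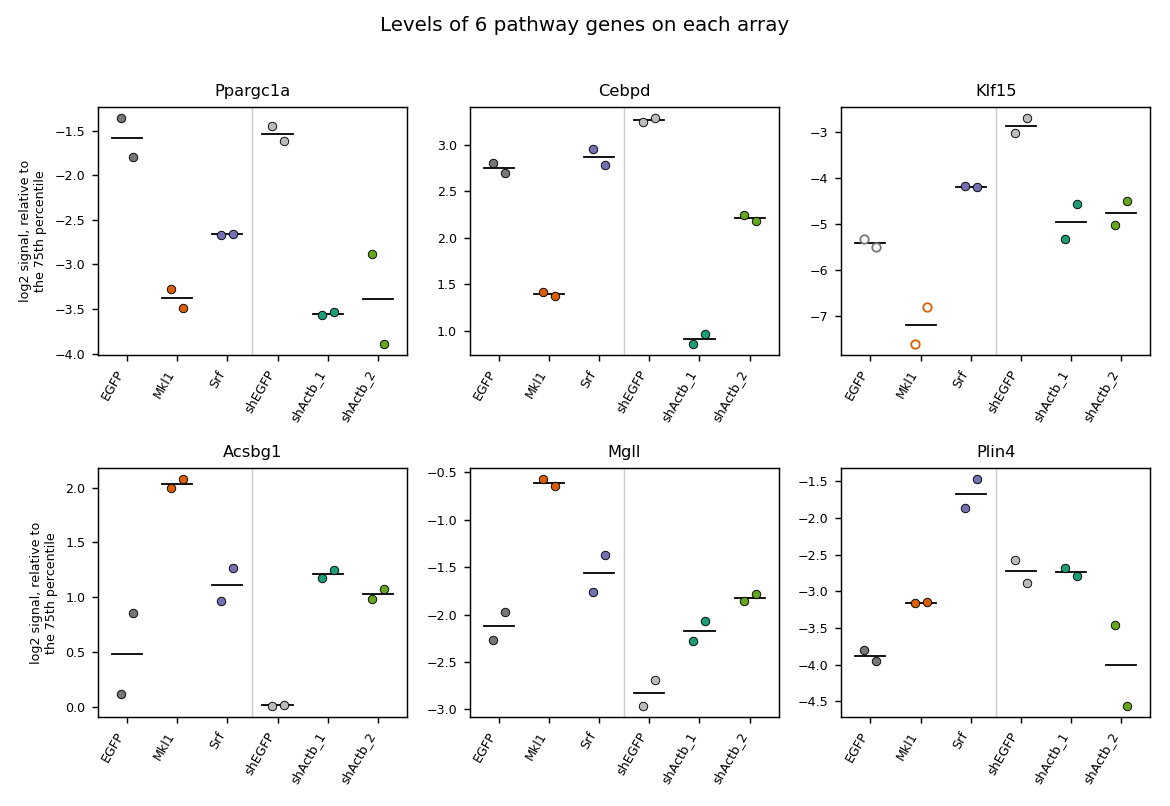
Levels of 6 pathway genes named by the rule for the lists, as log2 signal relative to the array's 75th percentile, on each of the 12 arrays; filled points are well above background, open points are not, and lines are means of 2 arrays. Ppargc1a lies lower on all treated arrays than on their controls, and Cebpd lies at 0.86 and 0.97 with shActb_1.

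Among genes of fatty acid uptake and activation, Acsbg1, an acyl-CoA synthetase, rose by 1.55 with Mkl1 (SE 0.21, limma adjusted p = 0.00311), by 1.20 with shActb_1 (SE 0.21, adjusted p = 0.0139) and by 1.02 with shActb_2 (SE 0.21, adjusted p = 0.00773), and its value for the arrays labelled Srf was 0.63. Its rise with shActb_1 did not pass with any single array left out (adjusted p from 0.0727 to 0.0887), and that with shActb_2 did not pass without shActb_2 replicate 2 (limma adjusted p = 0.0543). Fabp7, the fatty acid binding protein of radial glia, which also stood in the neural progenitor marker list, fell by 1.27 with shActb_1 (SE 0.19, limma adjusted p = 0.00725). It fell by 0.66 with Mkl1 (SE 0.19, limma adjusted p = 0.0491), and the value with shActb_2 was -0.24 (adjusted p = 0.346). The fall with shActb_1 did not pass without shEGFP replicate 2 or shActb_1 replicate 2 (limma adjusted p = 0.0523 and 0.0559). On arrays labelled Srf, Acsl6 was 1.15 higher at the probe used and 0.056 higher at its other probe, and Fabp6 was at least 2.47-fold lower.

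Lipid droplet and lipolysis genes moved in both directions. Mgll, which splits monoglycerides, rose by 1.51 with Mkl1 (SE 0.16, limma adjusted p = 0.00122) and slightly over 2-fold with shActb_2 (log2 SE 0.16, adjusted p = 0.00265), and its 2 other probes with a usable signal changed by 1.23 and 1.11 with Mkl1 and by 1.02 and 1.58 with shActb_2. Pnpla3, a lipid droplet hydrolase, fell by 1.03 with Mkl1 (SE 0.28, limma adjusted p = 0.0371), but its other probe read -0.15. The fall of Pnpla3 did not pass without EGFP replicate 1, Mkl1 replicate 1 or Mkl1 replicate 2 (adjusted p from 0.0568 to 0.213), nor without a filter on dim probes (limma adjusted p = 0.0736). With shActb_2, the droplet proteins Plin4 and Cideb fell, with log2 changes of -1.28 (SE 0.32, limma adjusted p = 0.0155) and -1.03 (SE 0.21, adjusted p = 0.00643). In limma neither passed without shEGFP replicate 1 (adjusted p = 0.0947 and 0.0501), nor Cideb without shActb_2 replicate 2 (adjusted p = 0.0542), and the change of Plin4 was -0.73 without shActb_2 replicate 2. The fall of Plin4 did not pass with the compared arrays only (limma adjusted p = 0.106). On the arrays labelled Srf, Plin4 was instead 2.21 (SE 0.32) higher, G0s2, an inhibitor of triglyceride lipase, read -1.34, and Cidea, another droplet protein, was at least 5.38-fold higher. Cidea was well above background on both Srf arrays, on 1 shActb_2 array and on no other. Under normexp the log2 values on the arrays labelled Srf were smaller for several dim list genes, with 1.33 for Plin4, 1.25 for Cidea, 0.76 for Ppargc1b, 0.60 for Acsl6, 0.40 for Klf15 and -0.31 for Fabp6.

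Of the partners of lipoprotein lipase and the lipoprotein receptors, Apoa5, a lipoprotein component, fell by 1.36 with shActb_2 (SE 0.19, limma adjusted p = 0.00149), from -3.24 and -3.48 on the shEGFP arrays to -4.49 and -4.96. On the arrays labelled Srf, the proprotein convertase Pcsk6 was 1.74 (SE 0.13) higher and the receptor Vldlr read -1.09 (SE 0.18), with -0.90 at its other probe. No gene of fatty acid synthesis and desaturation was called in any comparison, out of 21 or 22 tested. The same held for fatty acid oxidation, with 0 called of 24, although 4 oxidation genes fell at an adjusted p under 0.05 with Mkl1, 4 with shActb_1 and 4 with shActb_2, and 0, 0 and 1 rose. The shares of all probes past the same threshold were 20.8%, 9.41% and 40.3%, and nothing particular to the oxidation genes is read from these counts. The median change of the oxidation genes was -0.16 on the arrays labelled Srf, -0.20 with Mkl1, -0.16 with shActb_1 and -0.041 with shActb_2, beside -0.0089, 0.019, 0.024 and 0.069 for all named genes.

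Markers of other cell types were read on the same arrays. Adipocyte markers were dim: Adipoq, Plin1 and Cidec were well above background on 3, 2 and 2 of the 12 arrays, Lep, Retn and Cfd on 9, 10 and 7, and the summed signal of the 6 markers, in multiples of the 75th percentile, was 0.131 to 0.145 for EGFP, 0.119 to 0.127 for Mkl1, 0.156 to 0.172 for Srf, 0.144 to 0.178 for shEGFP, 0.142 to 0.144 for shActb_1 and 0.19 to 0.249 for shActb_2. The sum was highest on the shActb_2 arrays and, within the overexpression experiment, on the arrays labelled Srf. Of 5 adipocyte markers tested with shActb_2 against shEGFP, 0 passed an adjusted p under 0.05 in limma, and a relation of the sum to Pparg was not tested. Cidec was at least 1.74-fold higher with shActb_2 than with shActb_1 (limma adjusted p = 0.0161), a probe tested only through the shActb_2 arrays. The summed signal of 9 macrophage or microglia markers was 14.8 to 15.6 times the 75th percentile on the arrays labelled Srf, 9.60 to 10.8 with Mkl1, 8.92 to 9.38 on the EGFP arrays and 9.75 to 12.5 over the knockdown arrays, with Cd68 and Csf1r higher by 1.12 and 1.44 in log2 units and Aif1 at -1.29 relative to EGFP. Cx3cr1, Tyrobp and C1qa were well above background on 1, 2 and 1 of the 12 arrays. Of 6 tested macrophage or microglia markers, 1 was called lower with Mkl1, 0 with shActb_1 and 2 with shActb_2, and 0 were called higher. The shares of all named genes called in either direction were 3.84%, 2.39% and 5.76%. Of the 6 endothelial markers, Cdh5, Tie1, Tek and Emcn were well above background on 0 arrays and Pecam1 and Kdr on all, and the summed signal ranged from 5.31 to 9.30 over the arrays.

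The 6 smooth or skeletal muscle markers differed most. Their summed signal was 0.823 to 0.910 on the EGFP arrays, 83.3 to 84.3 with Mkl1 and 6.99 to 7.75 on the arrays labelled Srf, and 2.47 to 2.58 on the shEGFP arrays, 48.0 to 52.7 with shActb_1 and 77.1 to 78.1 with shActb_2. Acta2, a known Srf target, carried most of it, and Myog and Myh3 were well above background on 0 arrays. The part of these markers in the changes of the fatty acid handling genes was not tested.

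The 5 genes whose pattern was most like that of Lpl, among 6817 named probes whose group means spanned at least 1 on the log2 scale, were Esx1 (mean Pearson r with the Lpl probes 0.994), Gm11627 (0.984), Smad3 (0.984), Gstt1 (0.983) and G630025P09Rik (0.983). The correlations are over 12 arrays in 6 groups and are given without a test. Esx1 had group means of -0.76 for EGFP, -0.017 for Mkl1, 2.70 for Srf, -0.67 for shEGFP, -0.48 for shActb_1 and -0.055 for shActb_2. Because the Srf arrays dominate the pattern of Lpl, the choice itself favours genes that are high on them.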

How the data were processed

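RNA from NPCs was measured on 12 one-colour Agilent mouse expression arrays, and groups were taken from the labels. Per the file headers, the deposited signal intensity of each spot is the processed signal of Feature Extraction 11.5.1.1, background-subtracted by the scanner software. The authors also deposited a table of log2 values made by a percentile shift, which matched the log2 intensity within 0.01 after a constant shift per array and served as an alternative. Its column medians lay between -4.09 and -3.67, and its scale and direction are those of the intensities. The labels name an array format with fewer features than the files hold. The array design was built on mm9, and no probe coordinates were used. Promoter windows and their coordinates came from RefSeq on GRCm38.p6.

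Spots of a probe were averaged, control spots were left out, and each array's 75th percentile of the log2 signal was subtracted. Symbols came from RefSeq accessions in the files matched to GRCm38.p6, which named 50.3% of probes. Group means were fitted with limma 3.58.1 in R 4.3.3, with lmFit and eBayes on all 12 arrays, because 2 arrays per group give few degrees of freedom. A probe was tested when well above background on both arrays of at least 1 compared group. Tests were two-sided with Benjamini-Hochberg adjustment over all probes tested. The array number limits the precision. The lists used the probe with the highest mean per gene. On simulated data with 200 probes changed by 2 on the log2 scale, 81% were recovered among 35765 probes in the Mkl1 comparison with 2.99% false calls, and 83% among 36173 probes in the shActb_2 comparison with 1.19%. All tested changes of the fatty acid handling genes were smaller than 2, so these rates do not describe the recovery of such changes.

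The members and lists were chosen with earlier results of these data known. Named genes were all 10 members, the label checks, up to 3 called genes per direction, list and comparison with a control, and the 5 genes most like Lpl. Alternatives were normexp with an offset of 50 (on the median spot signal, the mean not being among the columns used), quantile normalization, the deposited table, no filter, a filter on all 12 arrays, the compared arrays only, a replicate block, a slide block, a variance trend with robust estimation, and leaving out each array.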

Additional observations from a re-analysis of the deposited data

Results flagged for a closer look

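The effects of the Actb hairpins differed by a direct limma test between the hairpin groups at 3 of the 11 probes of the fatty acid handling genes, where 32.1% of all probes passed. The difference of shActb_2 from shActb_1 was 0.5254 on the log2 scale for Lpl at its brighter probe (A_51_P259296), -0.3726 for Plin2 and 1.088 for Pparg, with limma adjusted p of 0.000992, 0.0116 and 0.00188. The dimmer Lpl probe did not pass (adjusted p = 0.104), and Plin2 did not pass without shActb_1 replicate 1, shActb_2 replicate 1 or shActb_2 replicate 2 (limma adjusted p = 0.0866, 0.0551 and 0.0665). Hairpin and slide cannot be told apart in these differences.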

How the results depend on the processing

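With normexp the changes of Lpl on the arrays labelled Srf were 3.26 and 2.79 at its probes, and 4 pathway list genes were over 2-fold there in place of 10, 4 in place of 8 were called with shActb_2, and 1 in place of 6 between the hairpins. Lipg, the single call among the fatty acid handling probes with Mkl1, shActb_1 and shActb_2, left 0 calls in each under normexp and under a filter on all 12 arrays, which takes Lipg out of the probes tested. Quantile normalization gave 2 calls with Mkl1. Over all probes normexp called 367 in place of 996 with Mkl1, 250 in place of 582 with shActb_1, 677 in place of 2283 with shActb_2 and 418 in place of 1782 between the hairpins. The cause was not tested.

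With the compared arrays only, 0 fatty acid handling probes and 0 list genes were called with Mkl1, the values of Lpl with Mkl1 were again 0.67 and 0.90, the changes of Lipg, Angptl4, Scd1 and both Cpt1a probes with Mkl1 did not pass (limma adjusted p from 0.0702 to 0.144), and the hairpin difference of Lpl at the dimmer probe, 0.36, passed (adjusted p = 0.0333). The rise of Lpl with shActb_2 at the dimmer probe was 0.60 with quantile normalization (limma adjusted p = 0.0584) and 0.44 without a filter (adjusted p = 0.0935). With single arrays left out it ranged from 0.39 to 0.49, the calls among the fatty acid handling probes with Mkl1 ranged from 1 to 2, and the counts of list genes ranged from 11 to 16 on the arrays labelled Srf, 3 to 8 with Mkl1, 2 to 4 with shActb_1, 5 to 10 with shActb_2 and 2 to 4 between the hairpins.

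The replicate numbers are not stated to pair the arrays, and the deviations of same-numbered arrays correlated at 0.0032 to 0.20 over probes. With a replicate block, the rise of Lpl with shActb_2 at the dimmer probe was 0.44 (limma adjusted p = 0.0634) and the fall of Fabp4 with shActb_1 had an adjusted p of 0.0531, and no other call of 66 tested values changed. The slide block left values within a slide as they were and could not be fitted for shActb_2. Under the alternatives, 1085 values of the fatty acid handling genes and of the called list genes were at hand. Of these, 1072 kept their sign, and 0 of the values past the test in both settings changed it. Signal over background limits Lipg and Cd36.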
